A study of Mus musculus with 4 samples.

Results

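The AP-1 transcription factor genes described here are the 10 members Fos, Fosb, Fosl2, Jun, Junb, Jund, Atf3, Batf, Bach2 and Bach1, taken by symbol from a table of 23285 genes measured by RNA sequencing in mouse DN3 thymocytes. All 10 were found. Fetal liver donor cells of 2 genotypes, Gata3(g/g), which the labels call a hypomorph, and wild type (WT), had been injected into irradiated mice, and DN3 cells, T cell precursors at the CD25-positive stage before T cell receptor beta selection, were sorted 16 weeks later. There were 2 libraries of each genotype, all labelled C57BL/6, and neither the recipients' age nor any pooling of animals is stated in the labels. The sequence identifiers place replicate 1 of both genotypes in 1 sequencing run (run 1) and replicate 2 of both in another (run 2). What else differed between the runs is not given. Whether the 2 libraries of a genotype are from different animals is not stated. The p-values therefore measure only how these libraries vary, which may be technical.

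AP-1 is a dimer of proteins with a basic DNA-binding region and a leucine zipper (bZIP). FOS proteins bind DNA only as partners of JUN proteins, whereas JUN proteins can also pair with each other, with ATF3 or with BATF. BACH1 and BACH2 are bZIP repressors that pair with small MAF proteins and bind sites resembling those of AP-1. Fos, Fosb, Jun, Junb and Atf3 are immediate-early genes: MAP kinase signalling raises their transcription within minutes, and their RNAs decay fast. In thymocytes, signals through the pre-T cell receptor and the T cell receptor induce AP-1, and handling or stress of cells is also known to do so.

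The libraries held 26901913 fragments (run 1) and 18035342 fragments (run 2) in those labelled Gata3(g/g), and 21159909 and 14331705 fragments in WT. All 12 markers of DN3 cells had at least 3 fragments in every library, with a summed level of 5299 and 5399 FPKM in the Gata3(g/g)-labelled libraries and 5041 and 5445 FPKM in WT. FPKM is a fragment count scaled to transcript length and library size. Gata3 itself went against the label: it measured 119.9 and 96.1 FPKM in the Gata3(g/g)-labelled libraries, against 62.4 and 58.5 FPKM in WT. One value for the whole gene cannot tell transcripts of an altered allele from normal ones. Every direction for Gata3(g/g) below therefore follows the labels. Transcripts of other cells moved with the run. Summed over 9 measured erythroid markers, levels were 2.36 and 1.38 FPKM in run 1 (Gata3(g/g), then WT) and 594 and 464 FPKM in run 2. Hba-a1 and Hba-a2 were at 0 fragments in both run 1 libraries. The neutrophil transcript S100a8 was at 0 and 0.660 FPKM in run 1 and at 40.2 and 33.3 FPKM in run 2. The sum of 12 myeloid markers was 22.9 and 14.6 FPKM in run 1 and 66.8 and 56.2 FPKM in run 2, most of it in run 2 from S100a8 and S100a9. Of the 4 myeloid markers tested by run, these 2 were lower in run 1, Lyz2 was higher and Cd68 did not pass.

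Levels of Fos, Fosb and the 3 JUN genes separated the runs, not the genotypes. In run 1, Fos, Jun, Fosb, Jund and Junb were the 5 highest of the 10 genes in both libraries, between 25.2 and 224 FPKM. In run 2, none of the 10 genes exceeded 24.8 FPKM. Because RNA came from bulk sorted cells, fewer cells expressing a gene and less RNA per cell cannot be told apart.

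Fos, which encodes the founding FOS protein, measured 152 FPKM in run 1 and 2.22 FPKM in run 2 in the Gata3(g/g)-labelled libraries, and 224 and 1.21 FPKM in WT. It was high in both run 1 libraries and low in both run 2 libraries, so that the runs did not overlap and the genotypes did. These levels rest on 15468 and 151 fragments in the Gata3(g/g)-labelled libraries and on 17084 and 64 fragments in WT. In WT of run 1, 98.9% of all genes lay below Fos, and in WT of run 2, 57.6% did.

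Fosb, which encodes a close paralogue of FOS, measured 75.3 and 0.689 FPKM in the Gata3(g/g)-labelled libraries and 128 and 0.952 FPKM in WT. It followed the same pattern, with both run 1 libraries far above both run 2 libraries. Fosl2, which encodes FRA-2, a FOS protein without a strong transactivation domain, stayed low, at 0.321 and 0.183 FPKM in the Gata3(g/g)-labelled libraries and 1.77 and 0.378 FPKM in WT. Here WT of run 1 stood above the other 3 libraries, and each genotype's run 1 library was above its run 2 library. For Fosl2 the genotypes did not overlap, as for 29.0% of the 10224 genes averaging at least 1 FPKM, a set without Fosl2.

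Jun, which encodes c-JUN, the main transactivating partner of FOS, measured 108 and 24.8 FPKM in the Gata3(g/g)-labelled libraries and 91.2 and 10.1 FPKM in WT. Junb, whose product is a weaker activator that can restrain c-JUN, measured 25.2 and 4.005 FPKM in the Gata3(g/g)-labelled libraries and 66.2 and 6.21 FPKM in WT. Jund, the JUN gene with the steadiest expression in most cells, measured 56.5 and 11.6 FPKM in the Gata3(g/g)-labelled libraries and 81.0 and 17.4 FPKM in WT. All 3 JUN genes were higher in both run 1 libraries than in either run 2 library. Within each run, Jun was the higher in the Gata3(g/g)-labelled library, while Junb and Jund were the higher in WT.

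Atf3, a stress-induced repressor gene, stood at 0.953 and 0.0784 FPKM in the Gata3(g/g)-labelled libraries and at 1.03 and 0.182 FPKM in WT. Its run 2 values rest on 5 and 9 fragments. Batf, whose product lacks a transactivation domain and pairs with JUN proteins at sites shared with IRF factors in T cells, went the other way by run, at 7.62 and 11.8 FPKM in the Gata3(g/g)-labelled libraries and 8.77 and 11.95 FPKM in WT.

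Bach2, a repressor gene that restrains effector differentiation in T cells, measured 1.83 and 2.53 FPKM in the Gata3(g/g)-labelled libraries and 1.33 and 1.78 FPKM in WT. Bach1, which represses haem oxygenase and other iron and oxidative stress genes, measured 3.96 and 5.45 FPKM in the Gata3(g/g)-labelled libraries and 4.21 and 6.15 FPKM in WT. Run 2 was higher than run 1 within each genotype for Batf, Bach2 and Bach1.

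**Figure D1:**
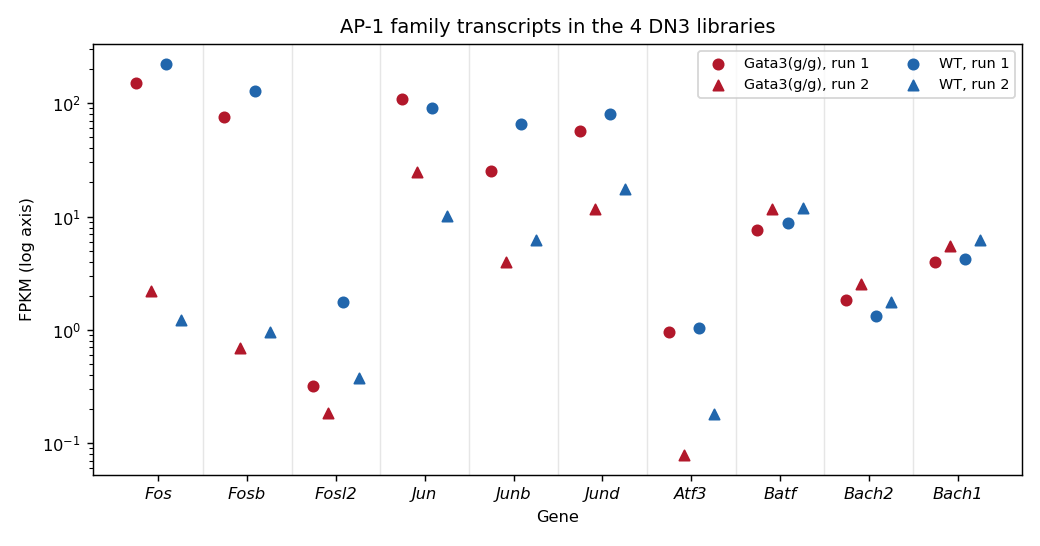
FPKM on a log axis of the 10 genes in each of the 4 libraries, circles for run 1 and triangles for run 2, red for Gata3(g/g) and blue for WT. Fos lies at 152 and 224 FPKM in run 1 and at 2.22 and 1.21 FPKM in run 2, whereas Batf lies between 7.62 and 11.95 FPKM in all 4.

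In order of level, run 1 had Fos first in both genotypes, followed by Jun, Fosb, Jund and Junb in the Gata3(g/g)-labelled library and by Fosb, Jun, Jund and Junb in WT. In run 2 the order was Jun, Batf, Jund, Bach1 and Junb in the Gata3(g/g)-labelled library, and Jund, Batf, Jun, Junb and Bach1 in WT. Fos and Fosb stood in places 7 and 8 in both run 2 libraries. Neighbours in these orders often differed less than the libraries did: Batf and Jund at 11.8 and 11.6 FPKM in Gata3(g/g) of run 2, and Junb and Bach1 at 6.21 and 6.15 FPKM in WT of run 2. The summed FPKM of the 3 FOS genes relative to that of the 3 JUN genes was 1.20 and 1.48 in run 1 (Gata3(g/g), then WT) and 0.0765 and 0.0755 in run 2. FOS genes made up 52.8% and 58.2% of the summed FPKM of the 10 genes in run 1, and 4.89% and 4.52% in run 2.

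The promoters of Fos, Fosb, Jun and Junb are shown, 4 immediate-early genes that moved together between the runs. Atf3, also an immediate-early gene and higher in run 1, had a mean of only 0.561 FPKM, and its promoter is not shown. Each window holds 300 bases around the RefSeq start, most of them before it, on GRCm38.p6, the build called mm10 in the deposited files, and is written along the gene's own strand. They lie at chr12:85473640-85473939 on the plus strand for Fos, chr7:19309996-19310295 on the minus strand for Fosb, chr4:95052173-95052472 on the minus strand for Jun and chr8:84978699-84978998 on the minus strand for Junb. Capitals mark TGACG, the first part of the cAMP response element (CRE), the AP-1-like element TGACATCA, and the TATA box TATAAA.
Fos: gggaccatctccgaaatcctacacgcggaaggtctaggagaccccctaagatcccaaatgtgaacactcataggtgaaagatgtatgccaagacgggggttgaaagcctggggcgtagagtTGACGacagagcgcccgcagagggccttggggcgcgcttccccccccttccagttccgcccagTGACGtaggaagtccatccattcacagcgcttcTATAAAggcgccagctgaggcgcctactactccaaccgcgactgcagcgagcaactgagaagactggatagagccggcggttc
Fosb: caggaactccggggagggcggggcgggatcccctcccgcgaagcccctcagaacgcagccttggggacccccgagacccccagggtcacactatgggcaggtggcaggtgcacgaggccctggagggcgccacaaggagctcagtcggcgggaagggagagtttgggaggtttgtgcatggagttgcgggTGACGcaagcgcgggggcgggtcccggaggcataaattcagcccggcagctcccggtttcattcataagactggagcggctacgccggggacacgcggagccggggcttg
Jun: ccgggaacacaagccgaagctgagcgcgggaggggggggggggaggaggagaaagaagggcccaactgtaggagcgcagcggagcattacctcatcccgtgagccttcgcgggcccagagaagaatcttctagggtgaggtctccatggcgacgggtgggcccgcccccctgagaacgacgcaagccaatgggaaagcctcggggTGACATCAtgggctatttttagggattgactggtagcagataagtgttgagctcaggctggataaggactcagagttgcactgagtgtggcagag
Junb: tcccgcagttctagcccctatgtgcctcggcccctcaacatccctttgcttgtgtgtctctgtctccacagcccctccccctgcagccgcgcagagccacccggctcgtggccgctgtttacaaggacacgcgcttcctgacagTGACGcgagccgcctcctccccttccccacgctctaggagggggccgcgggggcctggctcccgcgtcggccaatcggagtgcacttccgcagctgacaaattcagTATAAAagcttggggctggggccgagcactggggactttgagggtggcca

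Both strands were searched, and all 10 members matched a promoter in the RefSeq table. GENCODE M21 on the same build starts Fosl2, Jund, Atf3 and Bach2 outside these windows. Jund, for example, has a window at chr8:70697489-70697788 and a GENCODE start at 70698949. The counts that follow therefore hold for the RefSeq starts only. TGACG occurred in 5 of the 10 member promoters, those of Fos, Fosb, Junb, Atf3 and Batf, and in 20.8% of all 32851 promoter windows. In Fos it began 129 and 66 bases before the start, and in Fosb 60 bases before it. TGACATCA was found in 1 of the 10, Jun, 45 bases before the start, and in 3.62% of all windows. TATAAA was found in 2 of the 10, Fos and Junb, and in 13.6% of all windows. It began 33 bases before the start in Fos, but at the RefSeq start itself (base 1) in Junb. GENCODE M21 starts Junb further downstream, at 84978718 on the minus strand, so this TATAAA lies upstream of the GENCODE start. The full AP-1 site TGAGTCA, the full CRE TGACGTCA, which contains TGACG, and the CArG box of serum response factor were in none of the 10 windows, and in 5.2%, 1.79% and 1.63% of all windows. Only the 300 bases of each window were searched. A site further upstream, in Fos or another member, would therefore not have been seen. Batf, which did not share the run 1 high level, also held a TGACG.

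The run difference was tested in the additive model of genotype and run, with a positive log2 fold change for run 1 over run 2. Across 10224 tested genes this comparison called 34.8%, 17.3% higher and 17.5% lower in run 1. Of the 8 members that passed the filter on low values (a mean of at least 1 FPKM over the 4 libraries), 5 were higher in run 1, 2 were lower and 1 did not pass. Fosb, counted among the 5, passed the filter through run 1 alone, at 0.689 and 0.952 FPKM in run 2. Its call is therefore no independent support for a run difference. The median over the 8 tested members, Fosb included, was 2.42, beside 0.01 over all tested genes. The additive model has 1 residual degree of freedom and takes most of its spread from all genes together. Its SEs are therefore not the spread of each gene's own replicates.

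Fosb was 6.90 ± 0.174 (SE) higher in run 1 on the log2 scale (adjusted p = 6.16e-14 by edgeR), the rank of 4 from the top among 10224 genes. Fos was higher by 6.72 ± 0.255 (SE, adjusted p = 9.66e-12 by edgeR), at rank 5. In FPKM these were ratios of 109 and 134 for Fosb, and of 68.4 and 184 for Fos, in the Gata3(g/g)-labelled libraries and in WT. Junb followed with 3.03 ± 0.174 (SE, rank 32), Jun with 2.61 ± 0.191 (SE, rank 50) and Jund with 2.23 ± 0.128 (SE, rank 70). Their largest adjusted p was 6.10e-08 by edgeR, for Jun. DESeq2 in the same model gave SEs of 0.653 for Fos and 0.494 for Jun, larger than those of edgeR. It gave 0.189 for Fosb, 0.215 for Junb and 0.158 for Jund. Leaving out WT replicate 2, in a model of the run alone, lost the Junb call (adjusted p = 0.0556 by edgeR, log2 fold change 3.50). The other 4 were called without any 1 library.

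Fos and Fosb thus had larger run differences than the JUN genes in each genotype, 6.08 to 7.47 against 2.11 to 3.38 for Jun, Junb and Jund in log2 CPM (fragment counts scaled to library size). The gap was not tested. Bach1 fell by 0.53 on the log2 scale in run 1 (SE 0.136, adjusted p = 0.00695 by edgeR), and Bach2 fell by 0.47 (SE 0.149, adjusted p = 0.0222). Batf did not pass, at −0.53 ± 0.202 (SE) with an adjusted p of 0.0501 by edgeR. The Bach1 and Bach2 calls were lost by limma, with no filter and with no genotype term, and Bach2 also by DESeq2 (adjusted p = 0.123). No Bach2 call and only 1 Bach1 call (without Gata3(g/g) replicate 2) was made when 1 library was left out.

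Fosl2 and Atf3 did not pass the filter, with means of 0.662 and 0.561 FPKM. Tested at a minimum of 0.5 FPKM, a limit chosen after their values were seen, Atf3 was higher in run 1 by 2.97 ± 0.528 (SE, adjusted p = 4.81e-04 by edgeR) and Fosl2 by 1.58 ± 0.334 (SE, adjusted p = 0.00189 by edgeR). Both reached that minimum only through run 1. Atf3 averaged 0.993 FPKM in run 1 and 0.130 FPKM in run 2, and Fosl2 1.04 and 0.281 FPKM. These 2 calls are therefore no independent support for a run difference. At that minimum 34.0% of 10994 genes were called, 16.8% higher and 17.2% lower. Of the 8 members tested above 1 FPKM, 7 had runs that did not overlap in FPKM, as did 60.7% of all tested genes.

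**Figure D2:**
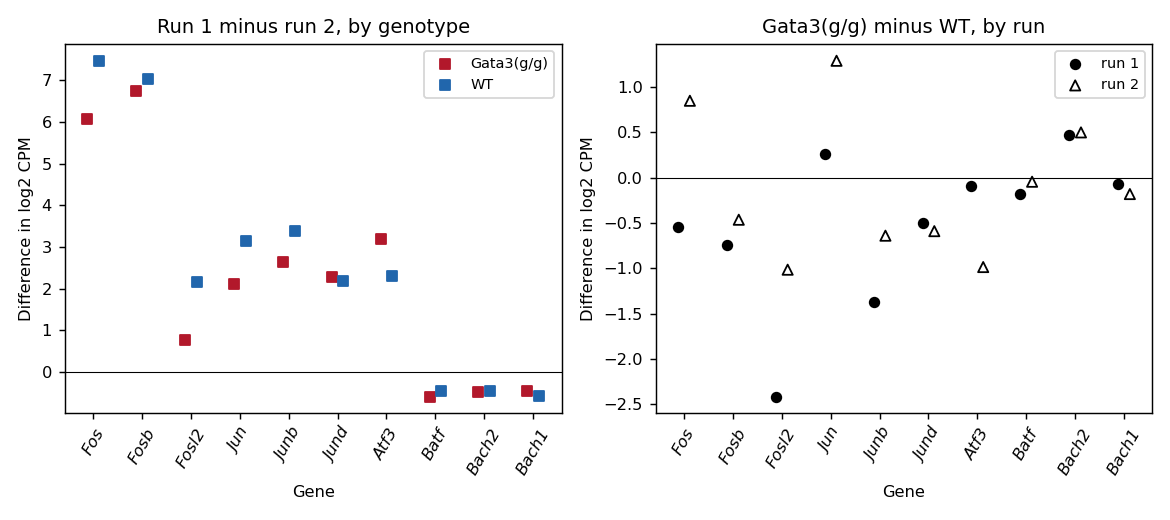
Differences in log2 CPM of the 10 genes, on the left run 1 minus run 2 within each genotype and on the right Gata3(g/g) minus WT within each run. Fos and Fosb lie between 6.08 and 7.47 on the left, while on the right Fos is at −0.54 in run 1 and 0.85 in run 2.

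The run difference moved together with the other transcripts described above, higher levels of the erythroid markers and of S100a8 and S100a9 in run 2, and with depth, which was higher in run 1. Their part in the AP-1 difference was not tested. Both genotypes showed it, with Fos at 68.4-fold in the Gata3(g/g)-labelled libraries and 184-fold in WT. The DN3 marker sum lay between 5041 and 5445 FPKM in all 4 libraries, while 5 of its 12 genes passed the run test.

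The genotype comparison asks what differed between DN3 cells labelled Gata3(g/g) and WT. In the model of genotype alone, no gene passed (0.0% of 10224, with 393 at an unadjusted p under 0.05), and none of the 8 tested members did. DESeq2 without the block called 88 genes (0.861%, 0.489% higher and 0.372% lower), 0 of them members. In the edgeR model of genotype alone the SE of Fos was 2.34 around a value of −0.52 (edgeR, adjusted p = 0.9997), and the SE of Jun was 1.13, since the run difference counted as spread within a genotype. With the run as replicate block, 6.9% of the genes passed, 3.9% higher and 2.99% lower in the Gata3(g/g)-labelled libraries. Of the 8 tested members, Jun was higher, Junb, Fosb and Jund were lower, and 4 did not pass. The block model has 1 residual degree of freedom and takes most of its spread from all genes together.

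Junb fell by 1.06 on the log2 scale with the block (SE 0.167, adjusted p = 6.50e-04 by edgeR), with −1.37 in run 1 and −0.64 in run 2 in log2 CPM. Fosb fell by 0.66 (SE 0.148, adjusted p = 0.0118 by edgeR), with −0.75 in run 1 and −0.46 in run 2. Jund fell by 0.55 (SE 0.123, adjusted p = 0.0118 by edgeR), with −0.51 in run 1 and −0.59 in run 2. Jun rose by 0.76 ± 0.182 (SE, adjusted p = 0.0176 by edgeR), with 0.26 in run 1 and 1.29 in run 2, so that most of its size came from run 2. DESeq2 with the block, which called 4.08% of the genes (2.25% higher and 1.83% lower), called Junb, Fosb and Jund but not Jun (adjusted p = 0.601), and limma with the block called no member (it called 16 genes in all). In the model of genotype alone, dropping 1 library puts more of one run in one genotype, and each of these 4 genes changed direction without at least 1 library. Without WT replicate 1, Junb was at 1.21, Fosb at 5.29 and Jund at 0.94. Without Gata3(g/g) replicate 2, Fosb was at 0.24 and Jund at 0.21. Jun was at −1.01 without Gata3(g/g) replicate 1 and at −0.44 without WT replicate 2.

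Some markers of other cells moved with the genotype too. Summed over 7 measured mast cell markers, levels were 2.94 and 1.93 FPKM in the Gata3(g/g)-labelled libraries, against 43.6 and 50.2 FPKM in WT, with 4 and 4 of the 7 at 3 fragments or more in the Gata3(g/g)-labelled libraries and 2 and 3 of the 7 in WT. The sum rests on 1 gene, Cpa3, at 2.73 and 1.55 FPKM in the Gata3(g/g)-labelled libraries and 43.5 and 49.997 FPKM in WT, and the other 6 were below 1 FPKM in every library. Over 8 NK and innate markers they were 96.8 and 76.2 FPKM in the Gata3(g/g)-labelled libraries and 43.8 and 41.6 FPKM in WT, again nearly all from 1 gene, Nkg7. Over 6 markers of earlier progenitors they were 14.1 and 15.4 FPKM in the Gata3(g/g)-labelled libraries against 9.10 and 9.40 FPKM in WT, and over 4 markers of double-positive thymocytes 11.3 and 10.5 FPKM in the Gata3(g/g)-labelled libraries against 7.003 and 3.88 FPKM in WT. With the block, Mef2c (2.19) and Cd44 (1.23) among 4 tested progenitor markers, and Cd8b1 (1.76) and Cd8a (1.28) among 3 tested double-positive markers, were higher in the Gata3(g/g)-labelled libraries, as were the B lineage marker Blk (1.82) and the myeloid marker Lyz2 (1.27). Their part in the genotype differences was not tested.

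Fos did not pass with the block, at −0.07 ± 0.218 (SE) and an adjusted p of 0.903 by edgeR. By DESeq2 with the block it was at 0.14 ± 0.653 (SE). Between the genotypes it stood at −0.54 in run 1 and 0.85 in run 2, the only member of the 10 whose direction differed between the runs, while 64.5% of all tested genes had the same direction in both. Bach2 had a value of 0.49 ± 0.149 (SE) with the block (adjusted p = 0.0613 by edgeR), with 0.47 in run 1 and 0.50 in run 2, and it passed with total counts as the only scaling (adjusted p = 0.0446). Bach1 was at −0.13 ± 0.136 (SE) and Batf at −0.11 ± 0.202 (SE), neither past the threshold. Fosl2, tested at a minimum of 0.5 FPKM where 6.87% of genes passed and 2.98% were lower, fell by 1.88 (SE 0.334, adjusted p = 0.00201 by edgeR, run as block), with −2.42 in run 1 and −1.02 in run 2, from 37 to 398 fragments a library. It reached that minimum only through WT of run 1, at 1.77 FPKM, beside 0.378 FPKM in WT of run 2. The mean was 1.07 FPKM in WT and 0.252 FPKM in the Gata3(g/g)-labelled libraries. This Fosl2 call is therefore no independent support for a genotype difference. Atf3 had −0.34 ± 0.480 (SE, adjusted p = 0.745). Among the 8 tested members, Bach2 alone had genotypes that did not overlap, beside 29.0% of all tested genes.

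**Figure D3:**
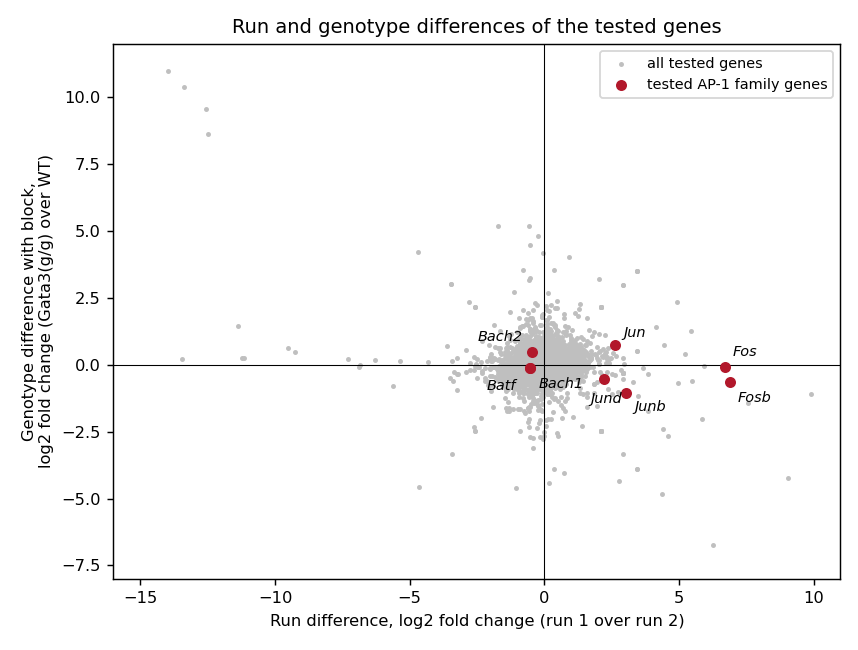
Genotype difference with the replicate block (log2 fold change, Gata3(g/g) over WT) against run difference (log2 fold change, run 1 over run 2) for the 10224 tested genes in grey and the 8 tested members in red. Fos and Fosb lie toward the right at 6.72 and 6.90, while the genotype differences of the 8 members lie between −1.06 and 0.76.

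In the authors' deposited table, which pools the libraries of each genotype, Junb (q-value 0.000264) and Fosl2 (q-value 0.00492) were called lower in Gata3(g/g), and the other 8 members were not called. The authors' deposited table called 4.1% of 11123 tested genes, 2.29% as higher and 1.81% as lower. Fosb had a q-value of 0.0614 and Jund of 0.105 in the authors' deposited table. It gives Junb at chr8:84976909-84978748, where GENCODE M21 on the same build has a gene of 1 exon, and Fosl2 at chr5:32136472-32157839, a gene of 4 exons. Jun and Jund are genes of 1 exon too, and an annotated antisense gene overlaps each (Junos and Gm11175), as Bach2os does Bach2. Whether counting used the strand is not given, so fragments of these 3 genes cannot be told apart from those of their antisense partners.

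The 3 JUN genes made up different shares of their summed FPKM in the 2 genotypes, with Jun's share larger, and those of Junb and Jund smaller, in the Gata3(g/g)-labelled library of each run. Jun gave 56.9% and 61.4% of the summed JUN FPKM in the Gata3(g/g)-labelled libraries, against 38.3% and 30.0% in WT (run 1, then run 2). Junb gave 13.3% and 9.9% in the Gata3(g/g)-labelled libraries, against 27.8% and 18.4% in WT. Jund gave 29.8% and 28.7% in the Gata3(g/g)-labelled libraries, against 34.0% and 51.6% in WT. The FPKM ratio of Jun to Junb was 4.28 and 6.20 in the Gata3(g/g)-labelled libraries and 1.38 and 1.63 in WT. The mean difference was 1.78 on the log2 scale, with p = 0.333 in a two-sided exact permutation test, the smallest that 2 against 2 libraries allow. The ratio of Jun to Jund was 1.91 and 2.14 in the Gata3(g/g)-labelled libraries, against 1.13 and 0.581 in WT, with a mean log2 difference of 1.32 (p = 0.333, the same smallest value of that exact permutation test). These ratios do not depend on the scaling between libraries.

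**Figure D4:**
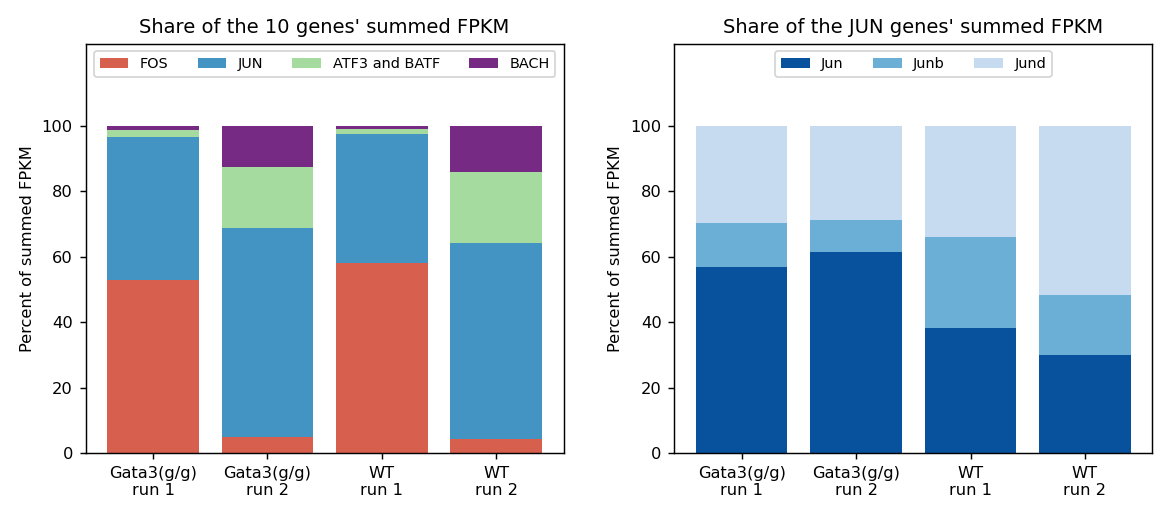
Shares of summed FPKM in each library, on the left of the FOS, JUN, ATF3 with BATF, and BACH groups among the 10 genes, on the right of the 3 JUN genes. FOS genes are below 5% of the sum in run 2, and Jun has its largest shares, 56.9% and 61.4%, in the Gata3(g/g)-labelled libraries.

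Genes around AP-1 were grouped in lists, all counted against the 17.3% higher and 17.5% lower in run 1 among all tested genes. The filter is a mean over the 4 libraries, so a gene low in 1 run could pass it through the other run alone. Klf4, Hspa1b and Ifng, given below, passed through run 1 alone. Of 26 other immediate-early genes, 22 were tested, of which 20 were higher in run 1, 0 were lower and 2 did not pass (Btg2 and Myc). Their median was 1.90. Klf4, a zinc-finger factor gene, measured 10.002 and 16.7 FPKM in run 1 (Gata3(g/g), then WT) and 0.275 and 0.292 FPKM in run 2, and was higher in run 1 by 5.48 ± 0.203 (SE). Dusp1, which encodes a MAP kinase phosphatase, was higher by 3.68 ± 0.220 (SE), from 38.5 and 60.7 FPKM in run 1 and 4.48 and 2.95 FPKM in run 2. Ppp1r15a, which encodes the stress protein GADD34, was higher by 2.95 ± 0.221 (SE), and Gadd45b, Klf6 and Klf2 by 2.51, 2.41 and 2.35. These 20 genes were higher in the run in which Fos, Fosb and the JUN genes were higher. They include Klf4, which passed the filter through run 1 alone, and the list was chosen with earlier results of these data known. The count of 20 is therefore no independent support for the AP-1 run difference.

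By genotype with the block, the same immediate-early list had 1 member higher (Socs3, 0.67) and 5 lower in the Gata3(g/g)-labelled libraries, beside 3.9% and 2.99% of all genes. Those lower were the orphan nuclear receptor genes Nr4a2 (−1.57), Nr4a3 (−1.53) and Nr4a1 (−1.21), the growth regulator gene Myc (−0.93) and the zinc-finger gene Egr1 (−0.73). Nr4a1 measured 6.14 and 2.18 FPKM in the Gata3(g/g)-labelled libraries, against 15.2 and 4.72 FPKM in WT. The list's median was −0.14, against 0.01 over all tested genes.

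Of 12 heat-shock genes known from cell dissociation signatures, 10 were tested, of which 7 were higher in run 1, 0 were lower and 3 did not pass. Hspa1b, which encodes an inducible HSP70, measured 4.90 and 1.90 FPKM in run 1 and 0.0643 and 0.235 FPKM in run 2, a difference of 4.46 ± 0.483 (SE). Dnajb1 was higher by 1.39 and Hspa5 by 1.33. Of the 10, by genotype with the block, only the chaperonin gene Hspe1 passed, lower by 0.45 in the Gata3(g/g)-labelled libraries. Among all tested genes 6.9% passed, 2.99% as lower.

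Of 28 other AP-1 and related bZIP genes, 20 were tested, 6 higher and 4 lower in run 1. The small MAF gene Maff, whose product partners BACH proteins, was higher by 1.86 ± 0.296 (SE), at 2.96 and 9.41 FPKM in run 1 and 1.36 and 1.55 FPKM in run 2. Cebpb was higher by 1.86, Mafk by 1.02, and Xbp1, an unfolded protein response factor gene, by 0.78. Atf7 was lower by 1.56 and Atf6 by 0.98 in run 1. By genotype with the block 4 were higher in the Gata3(g/g)-labelled libraries, which were Maf (2.22), Nfe2 (0.87), Xbp1 (0.48) and Nfe2l2 (0.48), and Maff was lower (−1.05). Among all tested genes 3.9% were higher and 2.99% lower.

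Upstream kinases and factors changed in both directions. Of 25 measured MAP kinase pathway genes, 21 were tested, 7 higher and 6 lower in run 1, with a median of −0.17. Mapk14, the gene for p38 alpha, was higher by 0.73 in run 1, while the kinase genes Braf (−0.88) and Map3k4 (−0.82) were lower. Of 11 genes for serum response factor, its cofactors and CREB kinases, 1 was higher and 4 were lower in run 1, among them Elk4 (−1.22) and Mkl2 (−1.17). Srf itself did not pass (−0.13, adjusted p = 0.494 by edgeR). By genotype with the block, 1 of the 21 and 1 of the 11 passed, Map3k5 (0.70) and Rps6ka5 (0.50), both higher in the Gata3(g/g)-labelled libraries. Among all tested genes 6.9% passed, 3.9% as higher.

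Of 20 genes known as targets of AP-1 or BATF in T cells, 7 passed the filter and were tested, of which 4 were higher in run 1. Among these 4, Ifng passed the filter through run 1 alone. Ifng, the interferon gamma gene, stood at 6.71 and 8.57 FPKM in run 1 and at 0.219 and 0 FPKM in run 2, and was higher by 5.92 ± 0.504 (SE). Cd69, an early activation antigen gene, stood at 18.4 and 31.3 FPKM in run 1 and at 2.90 and 3.38 FPKM in run 2, a difference of 2.93 ± 0.167 (SE). Tnf (1.18) and Vim (0.81) were higher too. By genotype, 0 of the 7 passed with or without the block. Of 12 antioxidant and iron genes that BACH proteins or NRF2 are known to control, 6 were tested, of which Ftl1 (0.50) was higher in run 1 and 0 passed by genotype. Hmox1, the haem oxygenase gene that BACH1 represses, was between 0.121 and 0.738 FPKM in all 4 libraries.

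**Figure D5:**
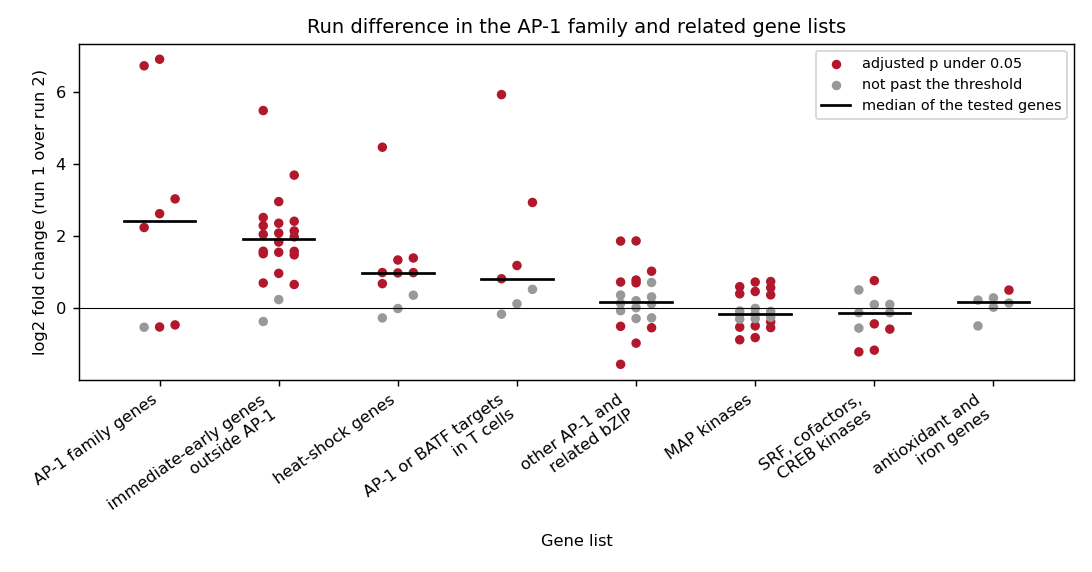
Run difference (log2 fold change, run 1 over run 2) of each tested gene in the AP-1 family and in 7 related lists, red where the adjusted p is under 0.05, with the median of each list as a bar. The immediate-early genes outside AP-1 have a median of 1.90, and the MAP kinase list of −0.17.

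The genes with the pattern most like Fos were sought by Euclidean distance between the 4 centred values of log2(FPKM + 1), over all tested genes and 4 libraries. The nearest 5 were Mir181b-1, Fosb, Mir196b, Mir5121 and Mir1893, at distances of 0.43 to 1.14, and Fosb, at 0.65, was the only protein-coding gene among them. The 4 small RNA genes were listed at 0 FPKM in both run 2 libraries, and short genes are hard to estimate in FPKM. Nearest to Jun were Ppp1ca, Ube2s, Terc, Hmga1 and Gpx4, at 0.31 to 0.63. Nearest to Bach2 were Erbb2ip, Arl5b, Rgl1, Fam63b and Zcchc3, at 0.03 to 0.05. With 4 libraries, such distances describe these libraries only.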

How the data were processed

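RNA was measured in 4 libraries of sorted DN3 thymocytes, 2 labelled Gata3(g/g) and 2 WT. The submitters' processing notes name TopHat2 2.0.8b, Bowtie2 2.1.0, Cuffdiff 2.1.1 and mm10, without the annotation or the strand setting. Per the file headers, 1 deposited table holds, by gene and library, the authors' estimated counts of fragments, which need not be whole, and FPKM. The authors' deposited comparison holds each genotype's mean FPKM with log2 fold changes, p-values and q-values. Estimated counts were rounded, 97.7% to 98.9% being within 0.01 of whole. Of 23285 genes, 3 whose status marks them as too deep were dropped, and 5 failed estimates were kept.

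The 10224 genes averaging 1 FPKM or more were tested with edgeR 4.0.16 (R 4.3.3), using the two-sided quasi-likelihood F test, trimmed mean of M values (TMM) scaling and Benjamini-Hochberg adjustment at 0.05. The main genotype model held genotype alone. The replicate number marks a shared sequencing run, so it pairs the libraries. The check of the pairing was the correlation across genes of the run differences in the 2 genotypes, 0.754 (Pearson; genes are not independent replicates), and results with the run as replicate block stand beside the others. The run comparison used genotype and run together. The SE is the unshrunken log2 fold change divided by the root of F. Within-run and within-genotype differences are log2 CPM with a prior count of 2. In each library 3 fragments equal 0.112 to 0.209 CPM, a floor for counting error only. DESeq2 1.42.0, limma 3.58.1 on log2(FPKM + 1), other scalings and filters, and leaving out each library were alternatives.

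The 10 members and all lists were chosen with earlier results of these data known. All members are named. From the other lists the called genes with the largest changes are named, at most 6 in each comparison, and for Fos, Jun and Bach2 the 5 nearest genes. Btg2, Srf, Hmox1, Jdp2 and Cd68 were named after their values were seen. Promoters are from RefSeq on GRCm38.p6.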

Additional observations from a re-analysis of the deposited data

Results flagged for a closer look

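The genotype difference of Fos had opposite directions in the 2 runs. Gata3(g/g) minus WT was −0.54 in run 1 and 0.847 in run 2, in log2 CPM, from 15468 against 17084 fragments in run 1 and 151 against 64 fragments in run 2. With 1 library of each genotype in a run, this difference between the runs was not tested. Across all tested genes, 64.5% had the same direction in both runs.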

How the results depend on the processing

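The count of genes called by genotype was 0 with genotype alone, also with RLE size factors, total counts only or a minimum mean FPKM of 5. It was 58 with no filter, 88 by DESeq2, and 5 and 4 by limma with a pseudocount of 1 and of 0.1. With the replicate block, which changed the calls of Junb, Fosb, Jund and Jun as given beside those results and no other tested member's, it was 705, and with the block it was 988 with no filter, 755 at a minimum mean FPKM of 0.5 (an alternative chosen after seeing the data), 674 with total counts only, 417 by DESeq2 and 16 by limma. With the block, 399 of 705 calls were higher, and 464 of 674 with total counts only, which moved the median over all genes to 0.06, against 0.01. Leaving out 1 library gave 1 to 11 calls by genotype.

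The run comparison called 3560 genes, and 2263 by DESeq2, 1040 and 235 by limma with a pseudocount of 1 and of 0.1, 751 with no genotype term, and 82 to 1536 when 1 library was left out, fewest without WT replicate 1. Without Gata3(g/g) replicate 1 it was 208 and without WT replicate 2 it was 215. Fos, Fosb, Jun and Jund were called higher in run 1 in all 13 alternatives run, and Junb in all but the one without WT replicate 2. Batf passed with RLE size factors and at a minimum mean FPKM of 5, so 8 members were called by run with RLE size factors, against 7, and 4 without WT replicate 2. With no filter 2814 of 4224 run calls were higher in run 1, against 1766 of 3560, and the median of all genes was −0.11.

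By genotype, Fos turned to 0.14 by DESeq2 with the block and to 0.13 by limma with a pseudocount of 0.1. Genotype directions turned when 1 library was left out, over ranges of −5.64 to 5.96 for Fos, −6.52 to 5.29 for Fosb, −1.01 to 2.69 for Jun, −3.16 to 1.21 for Junb, −2.07 to 0.94 for Jund, −0.43 to 0.17 for Batf and −0.41 to 0.18 for Bach1. These models hold 2 libraries of one genotype and 1 of the other, which is assumed to vary like them, and the runs are then unequally shared. Depth limits Atf3, with 5 and 9 fragments in run 2.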

Other observations

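Fos and Batf lie on 1 stretch of chromosome 12, from 85473901 to 85709087 on mm10 in the authors' deposited table, with Jdp2, which encodes a bZIP repressor that pairs with JUN proteins, as the only other gene listed between them. The 3 neighbours had different run differences. Fos was higher in run 1 by 6.72, Jdp2 had 0.31 ± 0.262 (SE, adjusted p = 0.387 by edgeR) and Batf −0.53. Jdp2 measured 3.41 and 3.49 FPKM in the Gata3(g/g)-labelled libraries and 3.61 and 2.25 FPKM in WT. Differences between these neighbours were not tested against each other.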
